A study of Mus musculus with 8 samples.

Results

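The contractile and actin cytoskeleton genes of the mouse aorta were taken as 36 genes chosen by name, which encode smooth muscle actin and myosin, their regulators, the cytoplasmic actins and the proteins that anchor actin filaments at the cell surface. All 36 were found on the array through the RefSeq transcript given for each probe, among 21368 genes named in this way, and all 36 were tested, among 13052 named genes tested. They had 56 probes: 22 genes had 1 probe and 14 had several, up to 5. For each gene the probe with the highest mean over the 8 arrays stood for the gene, and its other probes are given beside it. The study compared thoracic aorta of Fto -/- mice with that of Fto +/+ mice, with 4 samples per genotype and 1 array per sample. Fto encodes a demethylase that acts on N6-methyladenosine in RNA. According to the labels both genotypes were male, on a C57BL6J/NMRI background, with no treatment named, and RNA of an integrity number above 8 was used. Age, the cells that lacked Fto and the kind of allele are not given in the sources used here. Nothing states that the 4 samples of a genotype came from 4 animals, so each p-value measures the spread between these samples.

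Smooth muscle cells of the media contract when myosin thick filaments pull on actin thin filaments, after the kinase encoded by Mylk has phosphorylated the myosin regulatory light chain encoded by Myl9. The thin filaments are anchored in dense bodies and in adhesion plaques, where talin, vinculin and filamin connect them through integrins to the matrix around the cell. A separate pool of cytoplasmic actin is built up and severed continuously, the severing being done by destrin and the cofilins. Many of these genes are controlled by serum response factor and its partner myocardin, which bind the CArG box.

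That box is shown for the members that hold it near their start, because its binding factor is the best known shared regulator of the group. RefSeq promoter windows of assembly GRCm38.p6, from 250 bases before to 50 bases after a start, were found for 31 of the 36 genes; Actg2, Myh11, Tagln, Actb and Svil had none in the table used. The motif searched was CC, then 6 bases that are each A or T, then GG, on both strands. It lay in the windows of 5 of the 31 genes (16.1%), against 488 of all 27025 genes in the table (1.81%). The box is in capitals, in 40 bases written 5′ to 3′ on the strand of the gene, and the count after the gene name gives how many bases before the start the box begins:
Actg1, 90 bases, chr11:120348561-120348600, minus strand: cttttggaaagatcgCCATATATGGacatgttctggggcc
Filip1l, 62 bases, chr16:57549165-57549204, plus strand: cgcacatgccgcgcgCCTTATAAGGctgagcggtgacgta
Myl6, 50 bases, chr10:128493035-128493074, minus strand: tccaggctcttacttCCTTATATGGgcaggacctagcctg
Myl9, 161 bases, chr2:156775288-156775327, plus strand: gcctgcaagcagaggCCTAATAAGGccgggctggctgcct
Vcl, 227 bases, chr14:20929156-20929195, plus strand: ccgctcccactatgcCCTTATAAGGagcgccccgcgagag
Filip1l and Vcl carried the same 10 letters in capitals. The motif GGAATG (either strand), which TEAD factors bind, lay in the windows of 10 of the 31 genes (32.3%), against 16.6% of all genes in the table, and overlapped none of the 5 boxes printed. A match of letters is a description and not a site, and a window without a match says only that these letters are not in it.

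Fto was read first, as a check of the labels. On the log2 scale relative to the 75th percentile of each array, its level was -2.53, -2.19, -2.56 and -2.77 in Fto -/- arrays 1 to 4, against 0.60, 0.85, 0.47 and 0.35 in Fto +/+ arrays 1 to 4. Every Fto -/- array lay below every Fto +/+ array, and Fto fell 8.47-fold (log2 difference -3.08 ± 0.15 SE, limma adjusted p = 0.000403; exact two-sided permutation p = 0.0286, the smallest that 4 against 4 arrays allow). The title and the genotype field of each sample gave the grouping used here, which the Fto level follows, whereas the description field of every sample names the opposite genotype. The labels give male mice, but both probes for Xist, which is transcribed from the inactive X chromosome of females, were well above background on 8 of 8 arrays. Probes for the Y-linked genes Ddx3y, Kdm5d and Eif2s3y were so on 0 of 8 arrays, and of 2 probes for Uty, 1 was above background, on Fto +/+ array 3. Both genotypes thus went against the label, and the Xist probes were themselves higher in Fto -/- arrays without overlap, by 0.61 ± 0.15 and 0.63 ± 0.15 (SE, limma adjusted p of 0.0901 and 0.0865). As a check of the tissue, the smooth muscle markers Acta2, Myh11, Tagln and Cnn1 were well above background on 8 of 8 arrays.

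Signals of other cells in the vessel wall and its surroundings varied between arrays. The mean level of 7 measured of 8 listed brown adipocyte markers, each gene centred over the arrays, ran from -0.25 to 1.74 in Fto -/- arrays and from -1.55 to -0.09 in Fto +/+ arrays. Within that list Cidea was at 5.74, 5.13, 7.45 and 6.80 in Fto -/- arrays, against 4.37, 3.88, 4.68 and 4.67 in Fto +/+ arrays (log2 difference 1.88 ± 0.47 SE, adjusted p = 0.0884), and Cpt1b differed by 1.95 ± 0.52 (adjusted p = 0.104). The T cell markers (8 of 8 measured) averaged 0.69 ± 1.21 in Fto -/- arrays and -0.69 ± 1.31 in Fto +/+ arrays (SD, n = 4 each), and all 8 had a difference above 0. They were at 1.18, -1.08, 1.63 and 1.03 in Fto -/- arrays, against -1.39, 1.25, -1.55 and -1.07 in Fto +/+ arrays, so 3 Fto -/- arrays and 1 Fto +/+ array were high. The white adipocyte markers (9 of 10 measured) ran from -0.27 to 0.89 in Fto -/- arrays and from -1.26 to 0.65 in Fto +/+ arrays. Of skeletal and cardiac muscle, whose tissue shares some of the proteins described here, 8 of 12 markers were measured. Their mean level ran from -1.40 to 1.14 in Fto -/- arrays and from -0.35 to 0.65 in Fto +/+ arrays. Of the 8, 6 had a difference below 0 and 2 above. The 2 of smallest p were Acta1 (-0.53 ± 0.15 SE, limma adjusted p = 0.123) and Tnnt3 (-1.45 ± 0.71 SE, limma adjusted p = 0.308). Actn3, Myh1, Myh4 and Mylpf were not well above background on enough arrays to be tested. Myh1 and Myh4 were each well above it on 2 Fto +/+ arrays and 0 Fto -/- arrays, and Mylpf on 1 of each genotype. Of all 7 marker lists read, which also covered endothelium, fibroblasts and macrophages, 0 genes passed the limma threshold, though 5 of the 7 brown adipocyte markers were higher in Fto -/- at an unadjusted p under 0.05. Apart from the covariate fits given with the results, the part of these cells in the results was not tested. In bulk tissue, fewer cells of a type and less RNA per cell cannot be told apart.

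Across the 36 genes the fitted differences lay mostly below 0. The Fto -/- level was the lower one for 26 genes (72.2%) and the higher one for 10. With quantile normalization, or in the authors' deposited log2 table, it was the lower one for 31, since Acta2, Myl9, Myl6, Actb and Flna then lay just below 0. In the fit reported here the median log2 difference was -0.23, between -0.82 for Tes and 0.41 for Des. Over all 25292 tested probes 52.5% of differences lay below 0 with a median of -0.015, and over all named genes tested 56.2% did, with a median of -0.038. At an adjusted p under 0.05 in limma, 0 of the 36 genes changed with the probe that stands for the gene, where 1.66% of all tested probes did (0.814% lower and 0.842% higher in Fto -/-). At an unadjusted p under 0.05, 17 genes had a lower and 1 a higher level in Fto -/- arrays, against 10.3% of all tested probes lower and 8.72% higher. In 15 genes (41.7%) every Fto -/- array lay below every Fto +/+ array and in 0 genes above, against 7.36% of all tested probes below and 4.75% above. The same background over named genes alone was 9.05% below and 5.01% above. The genes were chosen with earlier results of these data known, so these shares describe the list and are no independent evidence of its direction.

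**Figure D1:**
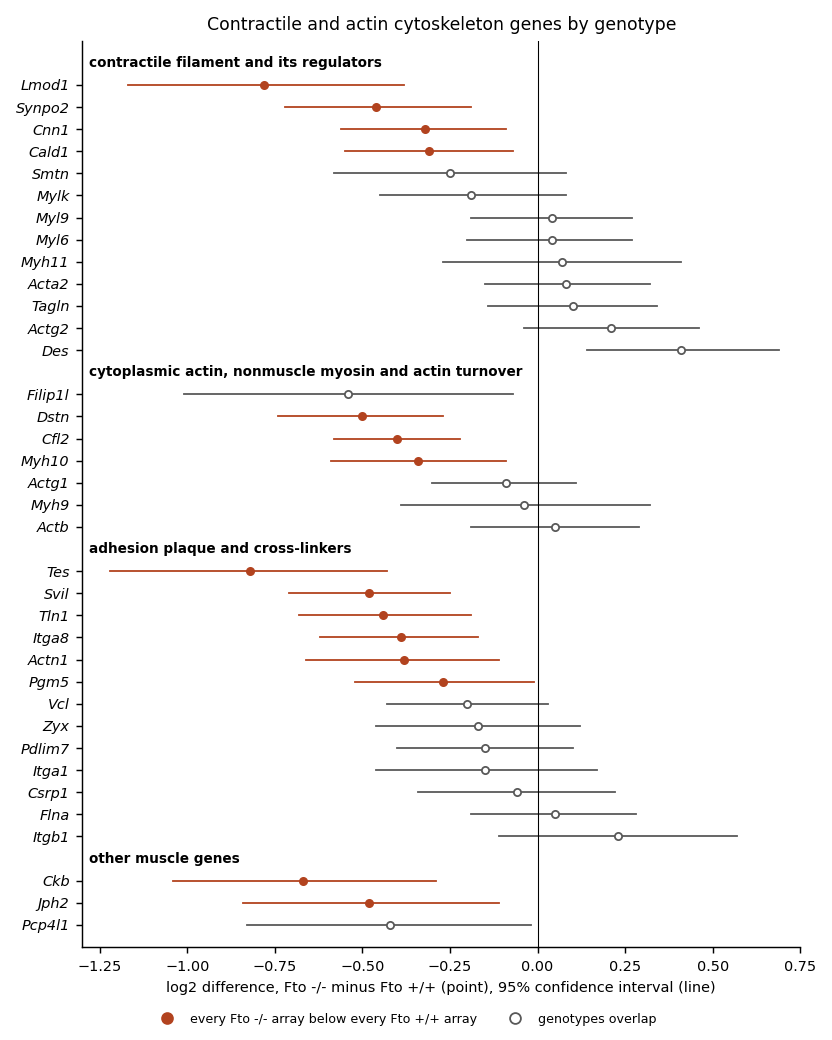
Difference between genotypes for the 36 genes in 4 role groups, each by the probe that stands for the gene. Points give the log2 difference, Fto -/- minus Fto +/+, and lines the 95% confidence interval of the limma fit (4 arrays per genotype); filled points mark the 15 genes whose genotypes do not overlap. The points run from -0.82 for Tes to 0.41 for Des.

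The call at the adjusted threshold was close for several genes and moved with the processing. Adjusted p-values of the 15 genes without overlap ran from 0.0504 for Cfl2 to 0.241 for Pgm5, and their Fto -/- levels were fitted as 1.20-fold to 1.77-fold lower. When arrays were scaled to the median of probes above background on every array, 2 genes passed (Cfl2 and Dstn), where 1.68% of all tested probes did. With the normexp background correction 5 genes passed (Lmod1, Dstn, Tes, Svil and Ckb), where 1.80% of all tested probes did. Testing only probes well above background on all 8 arrays gave 4 (Cfl2, Dstn, Tes and Svil), where 1.79% of all did. Leaving out Fto +/+ array 4 gave 3 (Cfl2, Dstn and Svil), where 3.50% of all tested probes then passed, and weighting arrays by their quality gave 11, where 8.12% did. Fto +/+ array 4 had the lowest such weight (0.367) and Fto -/- array 4 the highest (2.34).

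The 15 genes without overlap were lower in Fto -/- in each of 24 other ways of fitting the data. They were picked because every Fto -/- array lay below every Fto +/+ array. Their sign was therefore fixed in advance in fits on part of the arrays, with a block, with array weights or with another probe filter. The same holds for any other probe without overlap. Among the 24 were fits within each row of the slide, which the array positions in the headers give. Row 1 held Fto -/- arrays 1 to 3 with Fto +/+ array 1, and there the 15 differences ran from -0.95 to -0.16. In row 2, with Fto -/- array 4 and Fto +/+ arrays 2 to 4, they ran from -0.53 to -0.26. Each row holds 1 array of one genotype, which the fit assumes to vary like the other 3, so these differences carry little weight. With the brown adipocyte level as a covariate the 15 differences ran from -1.25 to -0.09, all below 0, and the median of the 36 was -0.17. That level was itself higher in Fto -/- arrays, so the covariate and the genotype can hardly be told apart. In that fit 0 of the 36 genes passed the limma threshold, where 0.0316% of all tested probes did. At an unadjusted limma p under 0.05 there were 8 genes, 7 of them lower. Of all tested probes 8.81% were under it, against 19.0% without the covariate. When the covariate was the T cell level, the median of the 36 was also -0.17, and 0 genes passed the limma threshold. In that fit 11 were lower at an unadjusted limma p under 0.05, against 17 without it. In either direction, 17.9% of all tested probes were under it, and 0.403% passed the adjusted threshold.

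**Figure D2:**
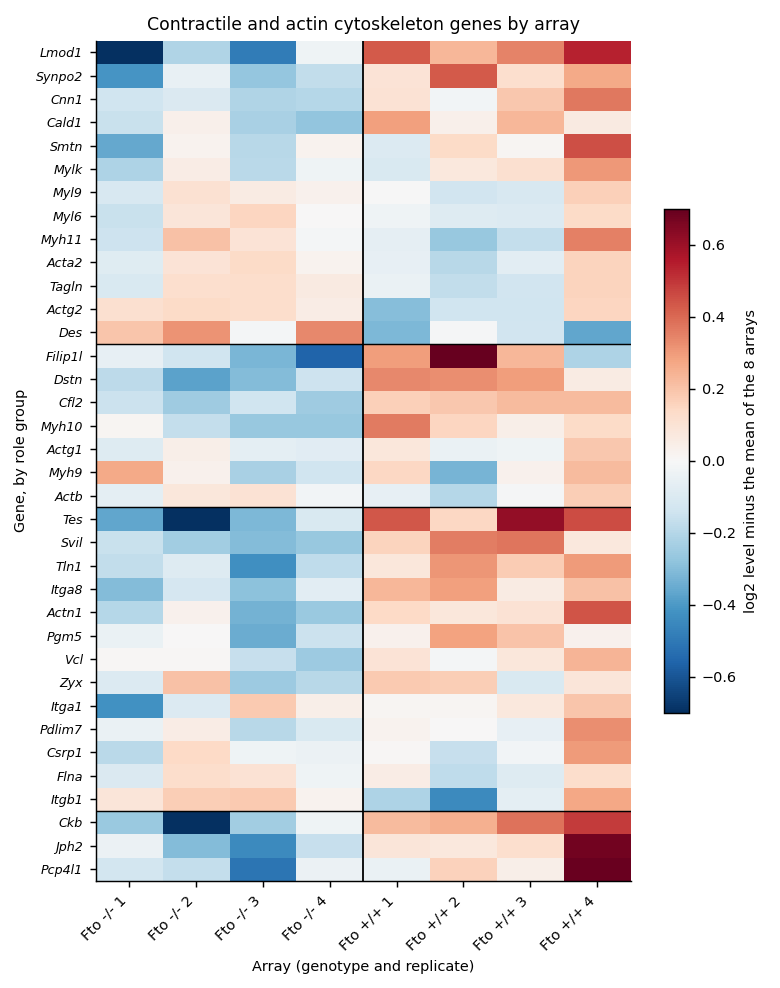
Level of each gene on each array, as log2 level minus the mean of that gene over the 8 arrays, with Fto -/- arrays left of the vertical line and Fto +/+ arrays right of it; horizontal lines part the role groups, in the order of the plot of differences. Blue is below and red above the mean, and the colour scale ends at 0.7 on either side. Dstn, Cfl2, Tes, Svil, Tln1 and Itga8 are blue on every Fto -/- array and red on every Fto +/+ array, whereas Acta2, Tagln and Myl9 change sign within both genotypes.

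The contractile filament and its regulators made up 13 genes, of which 6 had a difference below 0 and 7 above 0, with a median of 0.04. In 4 of them (Lmod1, Synpo2, Cnn1 and Cald1) the genotypes did not overlap, and these 4 are actin-binding regulators and not subunits of actin or myosin. Over all named genes tested, 56.2% of differences lay below 0, and 9.05% did not overlap with Fto -/- below. Tagln (0.10) and Smtn (-0.25), whose proteins also associate with actin, did overlap. Averaged over the 13 genes after centring, the level ran from -0.18 to 0.06 in Fto -/- arrays and from -0.01 to 0.21 in Fto +/+ arrays.

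Acta2 encodes the smooth muscle actin of arteries, the main protein of the thin filament. Its level was 9.77, 9.95, 9.99 and 9.88 in Fto -/- arrays, against 9.80, 9.66, 9.78 and 10.01 in Fto +/+ arrays. The ranges overlapped, and the highest and the lowest value were both Fto +/+; the difference was 0.08 ± 0.10 (SE), with an interval from -0.15 to 0.32 and an adjusted p of 0.692. Myh11, the smooth muscle myosin heavy chain, was at 6.86, 7.21, 7.10 and 6.99 in Fto -/- arrays, against 6.94, 6.74, 6.84 and 7.36 in Fto +/+ arrays (0.07 ± 0.15 SE, interval from -0.27 to 0.41, adjusted p = 0.836). Here too both extremes were Fto +/+ arrays. Tagln, the actin-bundling transgelin, was at 9.62, 9.84, 9.85 and 9.79 in Fto -/- arrays, against 9.68, 9.55, 9.59 and 9.88 in Fto +/+ arrays (0.10 ± 0.11 SE, interval from -0.14 to 0.34, adjusted p = 0.635). Acta2 and Tagln are among the brightest probes of the array, whose shared pattern is described after this group, so their intervals set no firm limit on a change. The 2 light chains Myl9 and Myl6 each differed by 0.04 (adjusted p of 0.861 for Myl9). Actg2, the smooth muscle actin best known from the gut, was at 7.05, 7.07, 7.06 and 6.99 in Fto -/- arrays, against 6.64, 6.80, 6.80 and 7.09 in Fto +/+ arrays. All of its Fto -/- arrays lay close together, above 3 Fto +/+ arrays and below Fto +/+ array 4, and the difference of 0.21 ± 0.11 (SE) had an adjusted p of 0.327.

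Lmod1 encodes leiomodin 1, which starts new actin filaments in smooth muscle. It was at 0.48, 1.09, 0.81 and 1.27 in Fto -/- arrays, against 1.73, 1.53, 1.65 and 1.84 in Fto +/+ arrays. The Fto -/- arrays were spread over a wider range, all below the Fto +/+ arrays, and the fitted level was 1.71-fold lower (-0.78 ± 0.17 SE, adjusted p = 0.0681). Synpo2, an actin-binding protein of muscle, was at 5.71, 6.07, 5.85 and 5.95 in Fto -/- arrays, against 6.22, 6.55, 6.24 and 6.39 in Fto +/+ arrays (-0.46 ± 0.12 SE, adjusted p = 0.0940). No array of one genotype reached the other, but its 2 other probes differed by -0.24 and -0.03, with overlap.

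Cnn1 and Cald1 encode calponin and caldesmon, which sit on the thin filament and restrain the myosin ATPase. Cnn1 was at 8.98, 9.02, 8.91 and 8.92 in Fto -/- arrays, against 9.22, 9.10, 9.31 and 9.49 in Fto +/+ arrays. The Fto -/- arrays lay within a narrow range, all below the lowest Fto +/+ array, and the level was 1.25-fold lower (-0.32 ± 0.10 SE, adjusted p = 0.148). Cald1 was at 4.06, 4.25, 3.99 and 3.94 in Fto -/- arrays, against 4.50, 4.25, 4.45 and 4.28 in Fto +/+ arrays (-0.31 ± 0.11 SE, adjusted p = 0.172). Only 0.01 parted Fto -/- array 2 from Fto +/+ array 2, so the absence of overlap is marginal for Cald1; its second probe differed by -0.30, again without overlap.

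Des, which encodes desmin, the intermediate filament protein of muscle, was the 1 gene with a higher level in Fto -/- at an unadjusted p under 0.05. It was at 0.65, 0.77, 0.44 and 0.79 in Fto -/- arrays, against 0.14, 0.45, 0.32 and 0.09 in Fto +/+ arrays. Only Fto -/- array 3 and Fto +/+ array 2 overlapped, by 0.01, and the level was 1.33-fold higher (0.41 ± 0.12 SE, limma adjusted p = 0.128). Its probe is spotted 10 times per array, and those spots had an SD of 0.04 to 0.078 (log2) within an array. Of the remaining regulators, Mylk, the myosin light chain kinase, differed by -0.19 (adjusted p = 0.410), and Smtn, the actin-associated smoothelin, by -0.25 ± 0.15 (SE, adjusted p = 0.379). A second Smtn probe (NM_013870) was at 2.24, 2.65, 2.72 and 2.69 in Fto -/- arrays, against 2.89, 2.82, 3.18 and 3.69 in Fto +/+ arrays, with no overlap and a difference of -0.57 ± 0.20 (SE, adjusted p = 0.186).

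Of the probes that stand for the 36 genes, 7 were among the 33 brightest tested probes, those at a level of 9 or more: Acta2, Myl9, Myl6, Tagln, Cnn1, Actb and Csrp1. The other 26 probes in that range shared a pattern across arrays, with a median centred level of -0.085, 0.156, 0.144 and 0.015 in Fto -/- arrays and -0.064, -0.179, -0.112 and 0.097 in Fto +/+ arrays. Their median difference was 0.133, while probes at levels between 2 and 4 had a median of -0.075. Acta2, Myl9, Myl6, Tagln and Actb shared this pattern, being low on Fto -/- array 1 and Fto +/+ array 2 and high on Fto +/+ array 4. Cnn1 did not, being below its own mean on all Fto -/- arrays. Before scaling, the intensity of Acta2 ran from 301300 to 327200 in Fto -/- arrays and from 330500 to 336200 in Fto +/+ arrays, where the brightest probe of 7 of the arrays stood between 344700 and 390400 and that of Fto +/+ array 4 at 740300. No probe of the 36 genes was called saturated by the scanner software. Whether a limit of the scan near its upper end moved these genes was not tested.

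**Figure D3:**
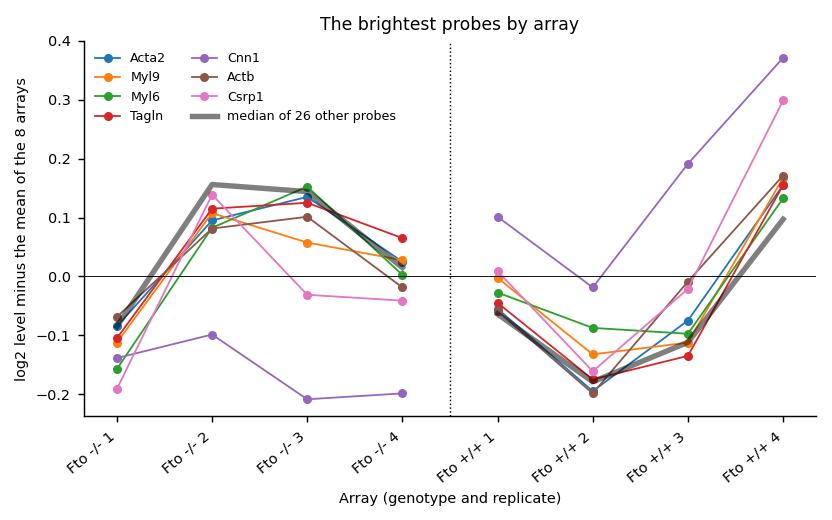
Log2 level minus the mean over the 8 arrays for the 7 genes at a level of 9 or more, with Fto -/- arrays left of the dotted line and Fto +/+ arrays right of it; the wide grey line is the median of 26 other tested probes as bright. Most of the 7 lines run along the grey line, which is lowest on Fto +/+ array 2 at -0.179, whereas Cnn1 lies below 0 on all Fto -/- arrays.

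Of the 7 genes for cytoplasmic actin, nonmuscle myosin and actin turnover, 6 had a difference below 0, with a median of -0.34. In 3 the genotypes did not overlap. The shares over all named genes tested were 56.2% below 0 and 9.05% without overlap, Fto -/- below. Their mean centred level ran from -0.21 to -0.04 in Fto -/- arrays and from 0.11 to 0.19 in Fto +/+ arrays. The brown adipocyte markers given above had the higher mean level in Fto -/- arrays (0.80 ± 0.87 against -0.80 ± 0.75, SD). That level and the genotype can therefore hardly be told apart over 8 arrays, and its part in any 1 gene was not tested. With that level as a covariate the differences were -0.48 for Dstn, -0.45 for Cfl2, -0.18 for Myh10 and -0.11 for Filip1l, which was at -0.54 without it.

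Dstn and Cfl2 encode destrin and muscle cofilin, which sever actin filaments and return monomers to the pool. Dstn was at 6.31, 6.12, 6.19 and 6.35 in Fto -/- arrays, against 6.83, 6.82, 6.79 and 6.55 in Fto +/+ arrays. Fto +/+ array 4 stood below the other 3 of its genotype but above every Fto -/- array, and the level was 1.42-fold lower (-0.50 ± 0.10 SE, adjusted p = 0.0531). Cfl2 had the smallest SE of the 15 genes without overlap, at 3.33, 3.23, 3.34 and 3.23 in Fto -/- arrays, against 3.65, 3.67, 3.70 and 3.70 in Fto +/+ arrays. Its genotypes were 0.31 apart at the nearest arrays, and the level was 1.32-fold lower (-0.40 ± 0.08 SE, adjusted p = 0.0504). A second Cfl2 probe was at 1.34, 1.49, 1.36 and 1.27 in Fto -/- arrays, against 1.87, 1.71, 1.79 and 1.82 in Fto +/+ arrays, again without overlap (-0.43 ± 0.09 SE, adjusted p = 0.0530).

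Myh10, the heavy chain of nonmuscle myosin IIB, was at 3.88, 3.70, 3.60 and 3.60 in Fto -/- arrays, against 4.23, 4.02, 3.91 and 4.00 in Fto +/+ arrays. The groups did not overlap, though Fto -/- array 1 came within 0.03 of Fto +/+ array 3 (-0.34 ± 0.11 SE, adjusted p = 0.148). Myh9, the heavy chain of nonmuscle myosin IIA, differed by -0.04 ± 0.15 (SE). Filip1l, named for its relation to a filamin A partner, was at 4.83, 4.75, 4.57 and 4.33 in Fto -/- arrays, against 5.18, 5.66, 5.12 and 4.67 in Fto +/+ arrays. Fto +/+ array 4 lay among the Fto -/- arrays, and the other 3 stood above all of them (-0.54 ± 0.21 SE, adjusted p = 0.211).

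The 2 cytoplasmic actins are abundant in every cell. Actb was at 9.57, 9.72, 9.74 and 9.62 in Fto -/- arrays, against 9.58, 9.44, 9.63 and 9.81 in Fto +/+ arrays, overlapping throughout (0.05 ± 0.10 SE, interval from -0.19 to 0.29, adjusted p = 0.829). The brightest probe of Actg1 was at 8.64, 8.77, 8.66 and 8.65 in Fto -/- arrays, against 8.81, 8.68, 8.70 and 8.92 in Fto +/+ arrays (-0.09 ± 0.09 SE, adjusted p = 0.606). Its other 4 probes did not all give that picture, and 2 of them passed the threshold over all tested probes. The first was at 4.35, 4.02, 4.03 and 4.40 in Fto -/- arrays, against 4.92, 4.88, 5.02 and 4.84 in Fto +/+ arrays, and fell 1.64-fold (-0.71 ± 0.12 SE, adjusted p = 0.0296). The second was at 2.72, 2.98, 2.82 and 3.03 in Fto -/- arrays, against 3.53, 3.55, 3.41 and 3.52 in Fto +/+ arrays, and fell 1.53-fold (-0.61 ± 0.10 SE, adjusted p = 0.0280). In both, every Fto -/- array was clearly below every Fto +/+ array. Both differences stayed below 0 in all 24 alternatives, but the call held in 8 of them for the first probe and in 9 for the second, and in 1 and 2 of the 8 fits with 1 array left out (adjusted p from 0.0146 to 0.937 and from 0.0146 to 0.965). Of the remaining probes, 1 did not overlap either (8.00, 7.70, 7.77 and 7.81 in Fto -/- arrays, against 8.37, 8.06, 8.26 and 8.30 in Fto +/+ arrays, adjusted p = 0.0920), and the last did (-0.06). The probes of Actg1 thus disagree in size, between -0.71 and -0.06, and near-identical actin genes and pseudogenes may share signal with some of them, which was not tested.

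Adhesion plaque proteins and actin cross-linkers made up 13 genes, of which 11 had a difference below 0, with a median of -0.20. Of the 13, 6 did not overlap between genotypes. Among all named genes tested 56.2% lay below 0, and 9.05% did not overlap with Fto -/- below. The mean centred level of the 13 ran from -0.17 to -0.05 in Fto -/- arrays and from 0.07 to 0.23 in Fto +/+ arrays. With the brown adipocyte level as a covariate the differences of the 6 were -1.25 for Tes, -0.43 for Svil, -0.31 for Tln1, -0.30 for Actn1, -0.29 for Itga8 and -0.09 for Pgm5, which was at -0.27 without it. Zyx, which overlapped, was at 0.14 with the covariate and -0.17 without it. As said above, this covariate and the genotype can hardly be told apart, and the cause of these shifts was not tested.

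Tes, which encodes testin, a LIM-domain protein of focal adhesions, had the widest difference of the 36 genes. It was at 3.92, 3.42, 3.97 and 4.18 in Fto -/- arrays, against 4.72, 4.43, 4.90 and 4.74 in Fto +/+ arrays. Array 2 was the lowest in each genotype and the groups stood apart, with a level 1.77-fold lower (-0.82 ± 0.17 SE, adjusted p = 0.0593). Svil, supervillin, which ties actin and myosin to the membrane, was at 4.10, 4.01, 3.95 and 3.99 in Fto -/- arrays, against 4.41, 4.61, 4.63 and 4.33 in Fto +/+ arrays (1.40-fold lower, -0.48 ± 0.10 SE, adjusted p = 0.0573). Its Fto -/- arrays spread less than its Fto +/+ arrays, and its second probe differed by -0.08 (adjusted p = 0.868).

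Talin, encoded by Tln1, connects the integrin tail to actin. Tln1 was at 6.90, 6.98, 6.64 and 6.89 in Fto -/- arrays, against 7.15, 7.38, 7.25 and 7.37 in Fto +/+ arrays (1.35-fold lower, -0.44 ± 0.11 SE, adjusted p = 0.0853). The groups did not meet, while a second Tln1 probe differed by -0.11. Itga8, an integrin subunit found on vascular smooth muscle, was at 7.26, 7.45, 7.28 and 7.49 in Fto -/- arrays, against 7.80, 7.85, 7.62 and 7.77 in Fto +/+ arrays (1.31-fold lower, -0.39 ± 0.10 SE, adjusted p = 0.0894). All Fto -/- arrays lay below the lowest Fto +/+ array, number 3. Its partner subunit Itgb1 differed by 0.23 ± 0.15 (SE), with overlap, and by 0.38 with a second probe, and Itga1 by -0.15 and 0.23 with its 2 probes.

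Actn1, the cross-linker alpha-actinin 1, was at 2.87, 3.10, 2.74 and 2.81 in Fto -/- arrays, against 3.21, 3.15, 3.17 and 3.51 in Fto +/+ arrays (-0.38 ± 0.12 SE, adjusted p = 0.148). Fto -/- array 2 came close to the lowest Fto +/+ array and the other 3 stood well below it. Pgm5, a relative of phosphoglucomutase found at adhesion sites of muscle, was at 5.23, 5.28, 4.93 and 5.13 in Fto -/- arrays, against 5.31, 5.56, 5.48 and 5.31 in Fto +/+ arrays (-0.27 ± 0.11 SE, adjusted p = 0.241). Of its other probes, 1 was at 3.40, 3.53, 3.00 and 3.36 in Fto -/- arrays, against 3.95, 4.22, 4.07 and 3.67 in Fto +/+ arrays (-0.65 ± 0.15 SE, adjusted p = 0.0796), and the last differed by -0.01. Both of the first 2 probes were without overlap, and both were lowest on Fto -/- array 3.

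The other 7 genes of the adhesion plaque overlapped between genotypes and missed an unadjusted p of 0.05. Vcl, vinculin, differed by -0.20 (adjusted p = 0.325) and by 0.18 with a second probe, and the LIM proteins Zyx by -0.17, Pdlim7 by -0.15 and Csrp1 by -0.06. Flna, the cross-linker filamin A, differed by 0.05. Another Pdlim7 probe (NM_026131) was at 0.54, 0.27, 0.18 and 0.33 in Fto -/- arrays, against 0.79, 0.94, 0.74 and 0.92 in Fto +/+ arrays. It did not overlap (-0.52 ± 0.11 SE, adjusted p = 0.0526), unlike the 2 brighter probes of the gene.

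The last 3 genes are muscle genes outside the filaments themselves, with differences of -0.67, -0.48 and -0.42. Ckb encodes the brain-type creatine kinase, which renews ATP from phosphocreatine and is also the form of smooth muscle. It was at 3.71, 3.17, 3.73 and 3.94 in Fto -/- arrays, against 4.19, 4.22, 4.35 and 4.46 in Fto +/+ arrays. Fto -/- array 2 was the lowest by a margin, and the groups did not overlap (1.59-fold lower, -0.67 ± 0.16 SE, adjusted p = 0.0865). The second Ckb probe was at 2.65, 2.24, 2.51 and 2.76 in Fto -/- arrays, against 3.10, 3.21, 3.19 and 3.16 in Fto +/+ arrays, and fell 1.54-fold (-0.63 ± 0.12 SE, adjusted p = 0.0458). Both Ckb probes thus gave nearly the same difference, and the dimmer one passed the threshold. That call held in 5 of 24 alternatives and in 0 of the 8 with 1 array left out (limma adjusted p from 0.0248 to 0.976), with a difference below 0 in all 24.

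Jph2 encodes junctophilin 2, which holds the sarcoplasmic reticulum near the cell membrane. It was at 0.38, 0.12, -0.02 and 0.26 in Fto -/- arrays, against 0.51, 0.50, 0.54 and 1.10 in Fto +/+ arrays (-0.48 ± 0.16 SE, adjusted p = 0.168). Fto +/+ array 4 stood far above the others of its genotype, and the groups did not overlap. Pcp4l1, related to a calmodulin-binding protein, was at 4.62, 4.58, 4.24 and 4.71 in Fto -/- arrays, against 4.70, 4.91, 4.79 and 5.44 in Fto +/+ arrays (-0.42 ± 0.18 SE, adjusted p = 0.248). Only Fto -/- array 4 and Fto +/+ array 1 overlapped, and Fto +/+ array 4 was again the highest.

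**Figure D4:**
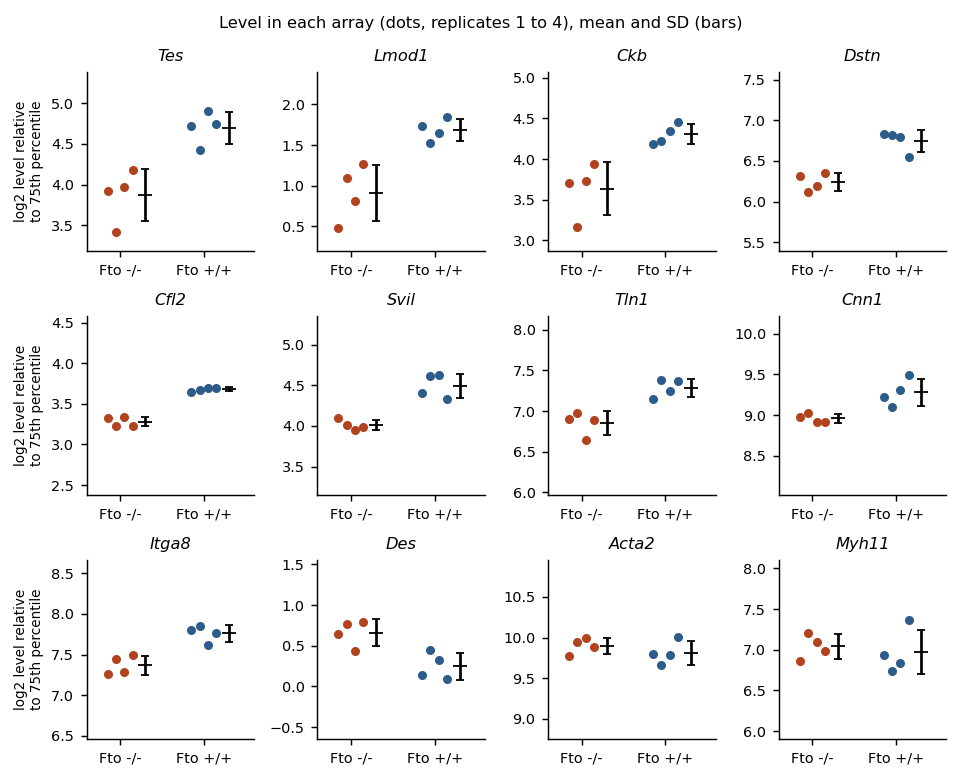
Level on each array for 12 genes, as log2 intensity relative to the 75th percentile of the array; dots are arrays 1 to 4 of Fto -/- (left) and Fto +/+ (right), and bars give the mean and SD (n = 4). All panels span the same height in log2 units but start at different levels. The dots stand apart for Tes, Lmod1, Ckb, Dstn, Cfl2, Svil, Tln1, Cnn1 and Itga8, and overlap for Des, Acta2 and Myh11.

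Counted over all 56 probes, 3 fell at the adjusted threshold (2 for Actg1 and 1 for Ckb) and 0 rose, against 0.814% of all tested probes lower and 0.842% higher. No overlap, with Fto -/- below, was found for 24, against 7.36% of all tested probes. Probes of the same gene are not separate observations. Among the 14 genes with several probes, all probes had the same sign in 11, and signs were opposite in Myl6, Itga1 and Vcl. The probes of 1 gene differed by over 0.3 in 9 of the 14. In Cald1, Cfl2 and Ckb every probe separated the genotypes. Probes of a gene lie at different places in its transcripts, which the files give only as the transcript name, and the part of splice forms or probe design in these disagreements was not tested.

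**Figure D5:**
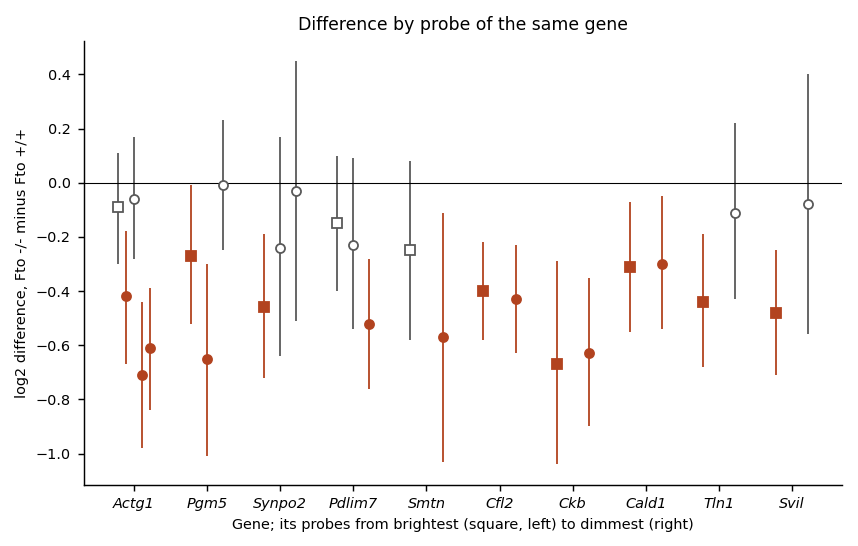
Difference by probe for 10 genes with several probes, as log2 difference (Fto -/- minus Fto +/+) with the 95% confidence interval of the limma fit; squares are the brightest probe of a gene and circles the others, ordered from bright to dim. Filled symbols mark probes whose genotypes do not overlap. The probes of Cfl2, Ckb and Cald1 lie together, while those of Actg1 run from -0.71 to -0.06.

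By the probe that stands for each gene, the 5 genes with a CArG box in the window, whose letters are given above, were not among the 15 without overlap. Their median difference was -0.09, from -0.54 for Filip1l to 0.04 for Myl6 and Myl9. The 26 genes with a window but no such match had a median of -0.32, from -0.82 to 0.41, and 14 of them did not overlap. The share without overlap, Fto -/- below, was 9.05% of all named genes tested, and 5 genes are too few to compare with it. Of the 5 Actg1 probes, however, 3 did not overlap, and its differences reached -0.71. Myl9 and Myl6 are among the brightest probes, whose shared pattern is described above. This split between genes with and without the box was read after the differences were known and was not tested.

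A wider set of 74 genes of the same pathways, none of them among the 36, was read in the same fit; 72 were tested, with a median difference of -0.14. In it 2 genes fell and 0 rose at the adjusted threshold, against 0.814% of all tested probes lower and 0.842% higher. At an unadjusted p under 0.05, 18 were lower and 2 higher in Fto -/-, against 10.3% of all tested probes lower and 8.72% higher. Without overlap 13 were lower and 1 higher, against 7.36% of all tested probes lower and 4.75% higher. Both genes that fell belong to the smooth muscle contractile apparatus (24 of 26 tested, Casq2 and Lmod2 not, median -0.16) and encode tropomyosins, which lie along the thin filament. Tpm1 was at 4.63, 4.66, 4.19 and 4.60 in Fto -/- arrays, against 5.16, 5.31, 5.14 and 5.06 in Fto +/+ arrays (1.56-fold lower, -0.65 ± 0.13 SE, adjusted p = 0.0463). Tpm2 was at 7.31, 7.57, 7.29 and 7.47 in Fto -/- arrays, against 7.92, 7.99, 7.80 and 8.07 in Fto +/+ arrays (1.45-fold lower, -0.53 ± 0.10 SE, adjusted p = 0.0465). Neither overlapped between genotypes. Each was read by its brightest probe alone, of 5 probes for Tpm1 and 2 for Tpm2. Of the 24 alternatives, the call held in 6 for Tpm1 (adjusted p from 0.0187 to 0.908) and in 5 for Tpm2 (from 0.0188 to 0.970), with all differences below 0.

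Among 28 further adhesion plaque and integrin genes (median -0.23), 0 passed the limma threshold, with 9 lower and 1 higher at an unadjusted p under 0.05. Over all tested probes these unadjusted shares were 10.3% lower and 8.72% higher. Flnc, the muscle filamin, was at 3.71, 4.11, 3.24 and 3.58 in Fto -/- arrays, against 4.33, 4.65, 4.73 and 5.17 in Fto +/+ arrays (2.08-fold lower, -1.06 ± 0.22 SE, adjusted p = 0.0572). Its genotypes did not overlap, while those of its relative Flna did. Of 20 actin assembly genes (median -0.07), 0 passed and 2 were lower at an unadjusted p under 0.05, near the 10.3% of all tested probes. These were Cap1, which recycles actin monomers, at -0.48 ± 0.17 (SE, adjusted p = 0.176) and Coro1c, a coronin, at -0.20 ± 0.09 (SE, adjusted p = 0.256).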

How the data were processed

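Total RNA of 8 thoracic aorta samples was read on single-dye (Cy3) Agilent mouse expression arrays. The deposited scanner files hold an intensity per spot, which per the file headers was background-subtracted by Feature Extraction 11.0.1.1 with no scaling across arrays, and annotated on build mm9. The authors' deposited series table holds log2 values centred per probe, as found by setting its columns against the scanner values (r from 0.983 to 0.997, column medians from -0.00954 to 0.0048); the sources used here do not give its normalisation.

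From the 59305 spots per array that were not controls, outlier spots (126 to 189 per array) were set to missing and spots of a probe averaged. A level is the log2 of processed intensity after division by the 75th percentile on the array (294.9 to 415.6). Probes well above background on at least 4 of 8 arrays were tested (25292), as Fto -/- minus Fto +/+ with limma 3.58.1 in R 4.3.3 and Benjamini-Hochberg adjustment over all of them at 0.05. Fto was also tested by an exact permutation test. The fit was tested on simulated data, where it called 18% of probes changed by 0.5 (log2), 60% of those changed by 1 and 92% of those changed by 2. Most changes of 0.5 were thus missed in the simulation. Of 55681 probes, 28331 (50.9%) were named by RefSeq transcript through a GRCm38.p6 gene table. The 4 arrays per genotype limit the precision, and all 8 share 1 scan date.

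Members and gene lists were chosen with earlier results of these data known. Genes are given with a value per array where any probe passed the threshold, where the genotypes did not overlap or where the unadjusted p was under 0.05, and so are Acta2, Myh11, Tagln, Cnn1, Actb and Actg1; Actg2, one Smtn and one Pdlim7 probe were added after their values were seen. From each pathway list the genes past the threshold, or else the 2 of smallest p, are named; a gene that this rule takes is not reported here. Other scalings, background corrections, probe filters, blocks, covariates and left-out arrays were tried as alternatives.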

Additional observations from a re-analysis of the deposited data

Results flagged for a closer look

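In 3 of the 74 groups of 4 arrays looked at (each of the 36 genes and Fto, in each genotype), 1 array stood apart from the other 3 by more than 0.829 of the whole range, the 95% critical value of Dixon's test, which some groups pass by chance. Actg1 was at 8.77 on Fto -/- array 2, against 8.64 to 8.66 on the other Fto -/- arrays, a gap of 0.90 of the range. Jph2 was at 1.10 on Fto +/+ array 4, against 0.50 to 0.54 on the other Fto +/+ arrays (0.931 of the range). Dstn was at 6.55 on that same array, against 6.79 to 6.83 (0.869 of the range). For Dstn this array was the nearest to the Fto -/- arrays and for Jph2 the farthest from them.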

How the results depend on the processing

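The genotypes were refitted in 24 other ways, 1 choice at a time; the brown adipocyte covariate, the normexp correction on the median signal (planned on a mean signal column, not run because the median one is held) and the subset of arrays with a T cell level below 0 were chosen after seeing the data. That subset sets 1 Fto -/- array (replicate 2) against 3 Fto +/+ arrays, and its fit assumes that the lone array varies like the others, so its values carry little weight. The limits are the 4 arrays per genotype, bulk tissue, and marker levels of adipocytes, T cells, fibroblasts and macrophages that vary between arrays. The 15 genes without overlap were below 0 in all 24, a sign that their choice fixed in advance for many of these fits. Genes of the 36 that passed, all lower, numbered 2 with median scaling, 5 with normexp, 4 with probes above background on all 8 arrays, 11 with array weights, and 0 to 3 with 1 array left out. The median difference of the 36 was -0.15 within slide row 1, -0.12 in the arrays of low T cell level, and -0.28 to -0.16 with 1 array left out.

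Over all tested probes (206 lower, 213 higher), calls numbered 35 lower and 61 higher without the filter on dim probes, 13 and 33 with the slide row as a block, 0 and 0 within row 1, 0 and 1 within row 2, 1093 and 960 with array weights. They numbered 56 and 87 with the white adipocyte level as a covariate, 41 and 61 with the T cell level, 3 and 5 with the brown adipocyte level, and 0 and 0 in the arrays of low T cell level (9.07% of probes at an unadjusted limma p under 0.05). With 1 array left out they ran from 46 to 387 lower and from 55 to 499 higher, both highest without Fto +/+ array 4. Of the pathway genes (2 lower, 0 higher), 5 passed as lower with normexp and with the filter on all 8 arrays, 10 lower and 1 higher with array weights, 0 to 1 with 1 array left out, and 0 with quantile normalization, the series table, no filter, either block, either row, any covariate or low T cell arrays. Fto differed by -3.02 within row 1 (adjusted p = 0.154), -3.33 within row 2 (0.320) and -2.66 in the arrays of low T cell level (0.129), all with fewer arrays.

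Signs turned for 9 genes, whose reported differences lay between -0.17 and 0.08. Quantile normalization gave -0.0043 for Acta2, -0.02 for Myl9 and Flna, -0.05 for Myl6 and -0.04 for Actb; the series table gave -0.02 for Acta2 and Flna, -0.03 for Myl9, -0.10 for Myl6 and -0.05 for Actb. Flna was at -0.01 with normexp and within row 1, and Actb at -0.01 within row 2 and with the white adipocyte covariate. The T cell covariate gave 0.11 for Myh9 and 0.05 for Csrp1, the low T cell arrays 0.15 for Zyx and 0.04 for Csrp1, and the brown adipocyte covariate -0.03 for Acta2 and Myh11, -0.04 for Myl6, -0.07 for Actb and 0.14 for Zyx. With 1 array left out, Myl6 ran from -0.0045 to 0.10, Myh9 from -0.15 to 0.03, Myh11 from -0.01 to 0.20, Actb from -0.01 to 0.11, Flna from -0.0043 to 0.10 and Csrp1 from -0.13 to 0.03. The cause of these changes was not tested.

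Replicate numbers are shared by the genotypes, but same-numbered samples correlated at 0.155, -0.0235, -0.0189 and -0.0407 in their deviations from the genotype means, so the numbers were not taken as pairs. With the replicate block 42 probes were lower and 90 higher, 0 of the 36 genes and 0 pathway genes passed, and the median of the 36 stayed at -0.23; not every sample correlated best with its own number.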
